A study of Mus musculus with 8 samples.

Results

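DNA repair and p53 response genes were followed in RNA from hippocampal cells that express Cck, taken from mice with and without a functional gene for SMARCA3, a DNA translocase that the mouse gene Hltf encodes. The 36 genes are those of the 39017 in the count table whose Ensembl IDs carry the symbols of 7 classes: 5 translesion polymerase genes, 3 replication protein A genes, 6 genes for break sensing and signalling, 4 for end joining, 7 for base excision and single-strand break repair, Trp53 with its regulator Mdm2, and 9 p53 target genes. They were chosen by name and role, with earlier results of these data known. All 36 passed the filter on low counts, as did 17654 genes in all.

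Mice of 2 genotypes were compared, each measured by translating ribosome affinity purification (TRAP), in which RNA is pulled down with ribosomes that carry an EGFP-tagged L10 protein. All mice carried a Cck-driven Cre recombinase and the L10-EGFP transgene. The mice of the 5 conditional knockout (cKO) libraries were also SMARCA3 fl/fl, and those of the 3 wild-type (WT) libraries were littermates without the homozygous floxed allele. Each library pooled 4 hippocampi, age and sex are not given, and nothing in the labels says how pools relate to each other, so p-values measure the spread between these pools. Cre acts in every cell that expresses or once expressed Cck, which in the hippocampus includes interneurons and many glutamatergic neurons, and total RNA that had not gone through the pull-down was not analysed here. A lower value can therefore mean fewer tagged cells of a type, less RNA per cell or less of that RNA on tagged ribosomes. RNA carried over from untagged cells can differ too, and these readings cannot be told apart.

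Replication protein A coats single-stranded DNA, at stalled forks and at repair sites, and gathers the kinases and polymerases that act there. Translesion polymerases copy past damaged bases, and SMARCA3 is known for extending the ubiquitin chain on PCNA that steers a stalled fork away from them and towards template switching. Breaks and stalled forks are sensed by the kinases ATM and ATR, which stabilise p53, and p53 then switches on genes for cell cycle arrest, repair and death. Neurons do not divide, and they rely mostly on base excision repair and end joining.

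The pull-downs held Cck RNA and RNA of several cell types, and their enrichment was not tested. Cck was at 571 to 837 CPM (counts scaled to library size, with trimmed-mean factors) in cKO and at 415 to 631 CPM in WT. The CCK interneuron list, which includes Cck, summed to 747 to 1016 CPM in cKO and 582 to 818 CPM in WT. The GABAergic list summed to 116 to 204 CPM in cKO and 148 to 195 CPM in WT. The glutamatergic list summed to 7644 to 11592 CPM in cKO and 7114 to 7571 CPM in WT. Most of the glutamatergic sum was Camk2a, at 6440 to 10057 CPM in cKO and 5930 to 6336 CPM in WT. Total counts ran from 31760155 to 61823651 per library. Hltf was at 5.10, 4.49, 4.21 and 2.83 CPM in cKO 1 to 4 and at 11.4 CPM in the library labelled cKO 5, against 13.7, 8.39 and 9.87 CPM in WT. Unlike cKO 1 to 4, the library labelled cKO 5 lay within the WT range of Hltf, and the reason was not tested. The log2 fold change of Hltf was -0.93 (SE 0.39), the adjusted p by edgeR's quasi-likelihood test and Benjamini-Hochberg adjustment was 0.558, and the two-sided exact permutation test over 56 arrangements gave a p of 0.107. Without the library labelled cKO 5 it was -1.36. The labels do not say which exons were floxed, and the counts include those that remain.

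Across the 36 genes, 0 genes passed an adjusted p of 0.05, and 0 of all genes tested did (0%). The lowest adjusted p of the 36 was 0.562 by edgeR with Benjamini-Hochberg adjustment, and 1540 of all genes had an unadjusted p under 0.05. DESeq2 called 129 of 12402 genes (1.04%) and limma-voom 3 higher and 1 lower, with 0 of the 36 among them. However, DESeq2 gave no adjusted p for some of the 36, among them Ung, Polh and Brca1, and so could not call these. With an unadjusted p under 0.05, 0 of the 36 were higher and 2 lower in cKO, Rpa3 and Ung, which is 5.56% of them, beside 8.72% of all genes tested, 5.02% higher and 3.7% lower. The cKO and WT libraries did not overlap for 2 genes, Ung and Atr, both lower in cKO, which is again 5.56%, beside 7.19% of all genes tested, 3.82% lower and 3.38% higher. Both shares were near the background, below that for either direction and above that for lower values. DESeq2 put 5 of the 36 lower and 0 higher at that unadjusted threshold (Rpa3, Ung, Atr, Apex1 and Sesn1), beside 8.47% of all genes in either direction and 3.53% lower. The fitted log2 fold change was above 0 for 15 genes and below 0 for 21, with a median of -0.053, beside a median of 0.023 over all genes tested, of which 47.0% were below 0. Without the library labelled cKO 5, 3 genes (Rev3l, Rpa3 and Ung) were lower and 0 higher by that rule, beside 8.77% of all genes in either direction and 4.3% lower. Of the 36, 4 (Rev3l, Rpa3, Atr and Ung) then did not overlap, all lower, beside 9.67% of all genes in either direction and 4.94% lower.

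**Figure D1:**
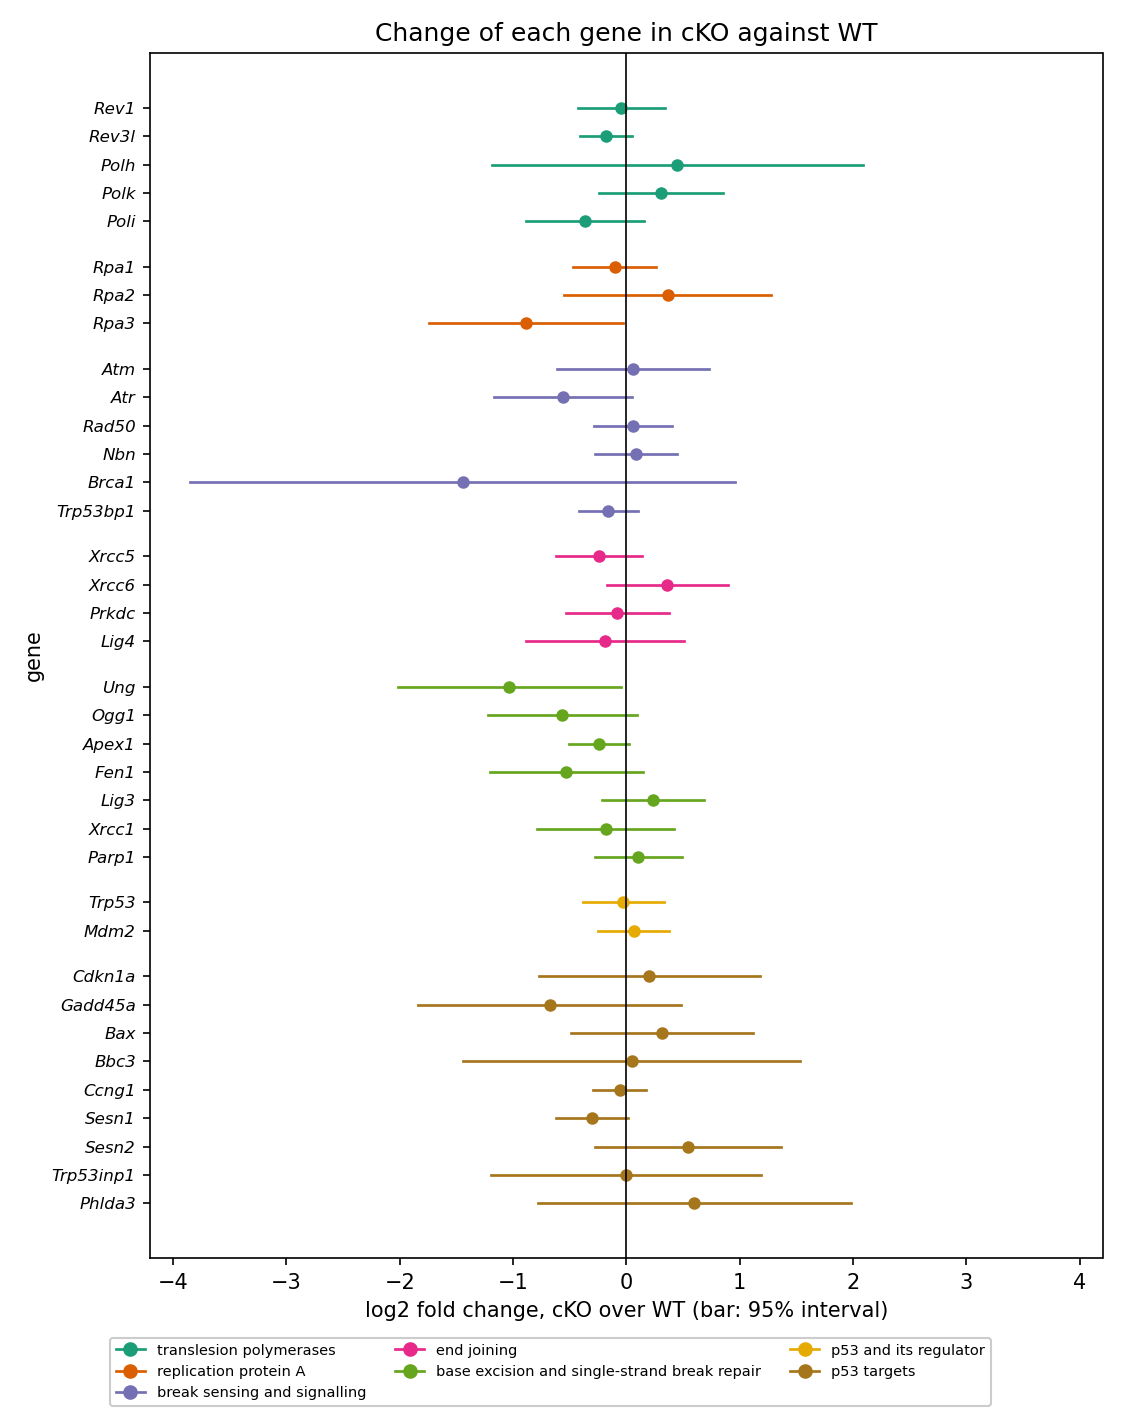
Log2 fold change of each gene in cKO over WT (x axis) with its 95% interval (bars), by class. The intervals of Rpa3 and Ung end just below 0, and those of the other 34 genes cover 0.

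As for most genes, the values of the individual libraries varied more in cKO than in WT. The coefficient of variation had a median of 24.7% over the 36 genes in cKO and 15.5% in WT, and it was larger in cKO for 28 of 36 genes, beside 74.7% of all genes tested. In single cKO libraries, 8 to 10 of the 36 genes lay above every WT library and 11 to 21 lay below every WT library, beside 28.3% to 34.5% and 25.8% to 37.2% of all genes tested. The highest of these counts below WT was 21 in cKO 4, a library in which 34.4% of all genes tested lay below every WT library. In each cKO library, the share of the 36 below WT was larger than that of all genes, and the share above WT was smaller. All these comparisons use the same WT libraries, and the difference in shares was not tested. By the gap to the nearest other cKO library, Rpa2 and Rpa3 stood apart in the library labelled cKO 5 and Gadd45a in cKO 4. Leaving out the library labelled cKO 5 gave log2 fold changes of -0.023 for Rpa1, -0.35 for Xrcc1, -0.16 for Xrcc5, 0.69 for Polh, -0.029 for Atm, -0.031 for Parp1 and -0.49 for Bbc3.

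**Figure D2:**
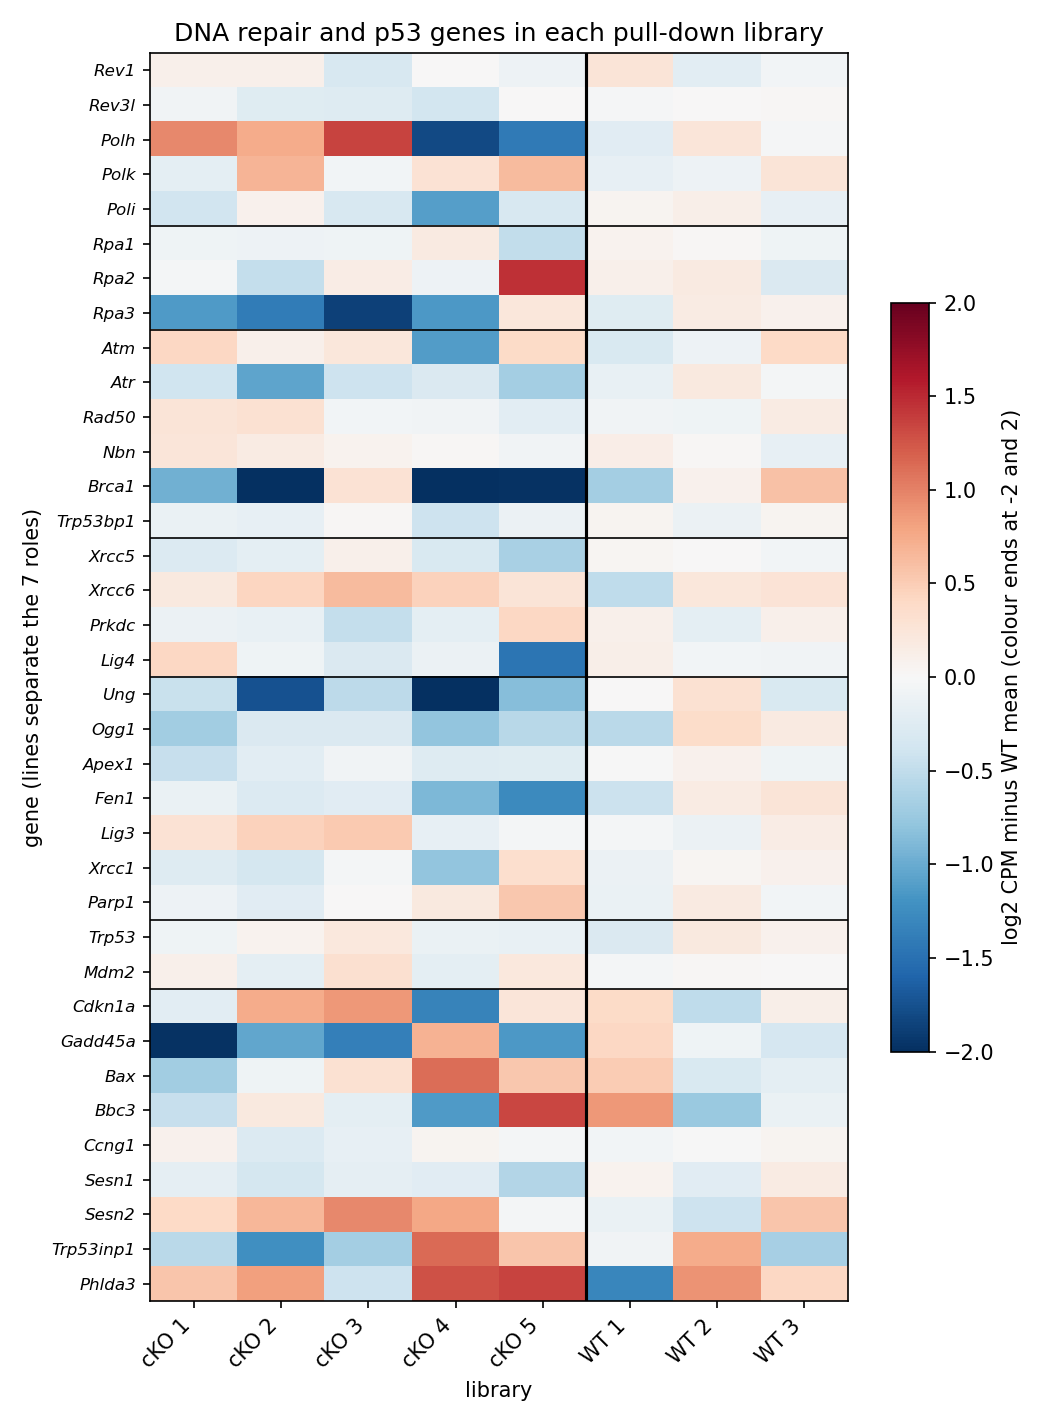
Log2 CPM of each gene (rows, in 7 classes) in each library (columns), minus the WT mean of that gene. Blue is lower and red is higher than the WT mean, and colours end at -2 and 2. Rpa3 is blue in cKO 1 to 4 and pale red in the library labelled cKO 5, whereas most rows show no colour shared by all cKO libraries.

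Rpa3 (ENSMUSG00000012483) encodes the smallest subunit of replication protein A, and its level was low in 4 cKO libraries and at the WT level in the library labelled cKO 5. It was at 9.31, 7.77, 5.55 and 9.20 CPM in cKO 1 to 4 and at 24.0 CPM in the library labelled cKO 5, against 17.3, 22.9 and 21.7 CPM in WT. The 4 lower cKO libraries lay below every WT library, and the library labelled cKO 5 lay above every WT library. These are the same 4 libraries in which Hltf was below every WT library. The log2 fold change over all libraries was -0.89 (SE 0.39, 95% interval -1.74 to -0.033), and edgeR gave an unadjusted p of 0.0431 (adjusted p 0.562). The exact permutation p was 0.125. Without the library labelled cKO 5 it was -1.38 (SE 0.21), and edgeR gave an unadjusted p of 4.67e-05 (adjusted p 0.117). Without any 1 of the other libraries the unadjusted p by edgeR was above 0.05, at 0.0521 to 0.113. In the 6 libraries with numbers 1 to 3 in both groups it was -1.45, and its adjusted p of 0.0490 by edgeR made it the 1 of the 36 genes called there, beside 0.0575% of all genes tested. In those 6 libraries 2 of the 36 were higher (Polh and Lig3) and 3 lower (Rpa3, Gadd45a and Trp53inp1) at an unadjusted p under 0.05 by edgeR, beside 9.38% of all genes. With an offset for GC content and length its unadjusted p by edgeR was 0.174. Over all alternatives the adjusted p of Rpa3 ran from 0.0490 to 0.951.

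The other replication protein A genes did not share this pattern. Rpa1, the large subunit that binds DNA, averaged 20.1 ± 3.24 CPM in cKO (SD, n = 5) and 21.6 ± 1.13 CPM in WT (SD, n = 3), a log2 fold change of -0.10 (95% interval -0.47 to 0.26). Rpa2, the middle subunit that damage kinases phosphorylate, was at 5.31, 3.92, 6.02 and 5.05 CPM in cKO 1 to 4, at 15.1 CPM in the library labelled cKO 5, and at 5.82, 6.20 and 4.45 CPM in WT. That single library was above all others and set the sign of the log2 fold change, which was 0.36 with it and -0.12 without it.

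Rpa3 lies on the reverse strand of chromosome 6 (mm10, 8255936 to 8259173), head to head with Umad1 on the forward strand (8259288 to 8459470). Umad1, a gene named for its UBAP1-MVB12-associated domain, was looked at after the values of Rpa3 had been seen. The annotated starts are 114 bases apart and the genes share no exon bases in GENCODE vM21. Umad1 was at 132, 129, 132 and 113 CPM in cKO 1 to 4 and at 142 CPM in the library labelled cKO 5, against 152, 176 and 178 CPM in WT. Here the library labelled cKO 5 was low too, and the groups did not overlap. The same held, lower in cKO, for 3.82% of all genes tested. Its log2 fold change was -0.38 (SE 0.10), and edgeR gave an unadjusted p of 0.00333 (adjusted p 0.498). With an offset for GC content and length it was -0.22 (SE 0.13; unadjusted p 0.134 by edgeR). The exact permutation p of 0.0179 is the smallest that 56 arrangements can give, and it rests on that same separation of the groups. The other genes tested within 500 kb had log2 fold changes of -0.29 (Glcci1), -0.18 (Ica1), 0.029 (Gm9825), 0.12 (Mios), 0.19 (C1galt1) and 0.51 (A430035B10Rik), and none had an unadjusted p under 0.05 by edgeR.

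The stretch between Rpa3 and Umad1 is shown because it is the upstream sequence of both, and the stretches before Ung and Atr because these are the genes whose groups did not overlap. Each comes from the RefSeq promoter table for GRCm38.p6, the same assembly as mm10, in which 30 of the 36 genes were found. Each is written 5′ to 3′ on the strand of the named gene, and it ends before that gene's earliest annotated start. Capitals mark CCAAT and GGGCGG on either strand, which do not overlap each other, and ATTGG and CCGCCC are their reverse complements.
Rpa3, chr6:8259174-8259287, reverse strand: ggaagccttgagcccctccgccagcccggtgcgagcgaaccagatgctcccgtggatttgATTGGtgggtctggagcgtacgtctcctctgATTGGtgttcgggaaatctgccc
Ung, chr5:114130185-114130365, forward strand: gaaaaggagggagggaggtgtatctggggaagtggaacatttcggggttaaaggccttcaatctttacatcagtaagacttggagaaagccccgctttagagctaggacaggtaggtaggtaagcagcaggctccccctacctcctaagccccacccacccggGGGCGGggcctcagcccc
Atr, chr9:95857347-95857596, forward strand: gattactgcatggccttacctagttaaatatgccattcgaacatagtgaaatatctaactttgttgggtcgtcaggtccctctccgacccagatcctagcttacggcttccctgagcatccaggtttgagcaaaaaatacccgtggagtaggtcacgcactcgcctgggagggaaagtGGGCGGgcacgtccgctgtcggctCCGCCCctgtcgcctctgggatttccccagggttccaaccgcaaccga
The 114 bases between Rpa3 and Umad1 hold 2 CCAAT matches and no GGGCGG match, which 22.8% of windows hold. At the same place before the start, 20.4% of 32851 windows of that length in the table hold at least 1 CCAAT match and 4.1% hold at least 2. The 181 bases before Ung hold 1 GGGCGG match, where 21.2% of windows of that length hold at least 1, and the 250 bases before Atr hold 2, where 16.7% of windows of that length hold at least 2. An antisense gene, 1700065D16Rik, shares exon bases with Atr, and whether its exons reach into the stretch before Atr was not tested. A match is a description of the letters and not a site in use.

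**Figure D3:**
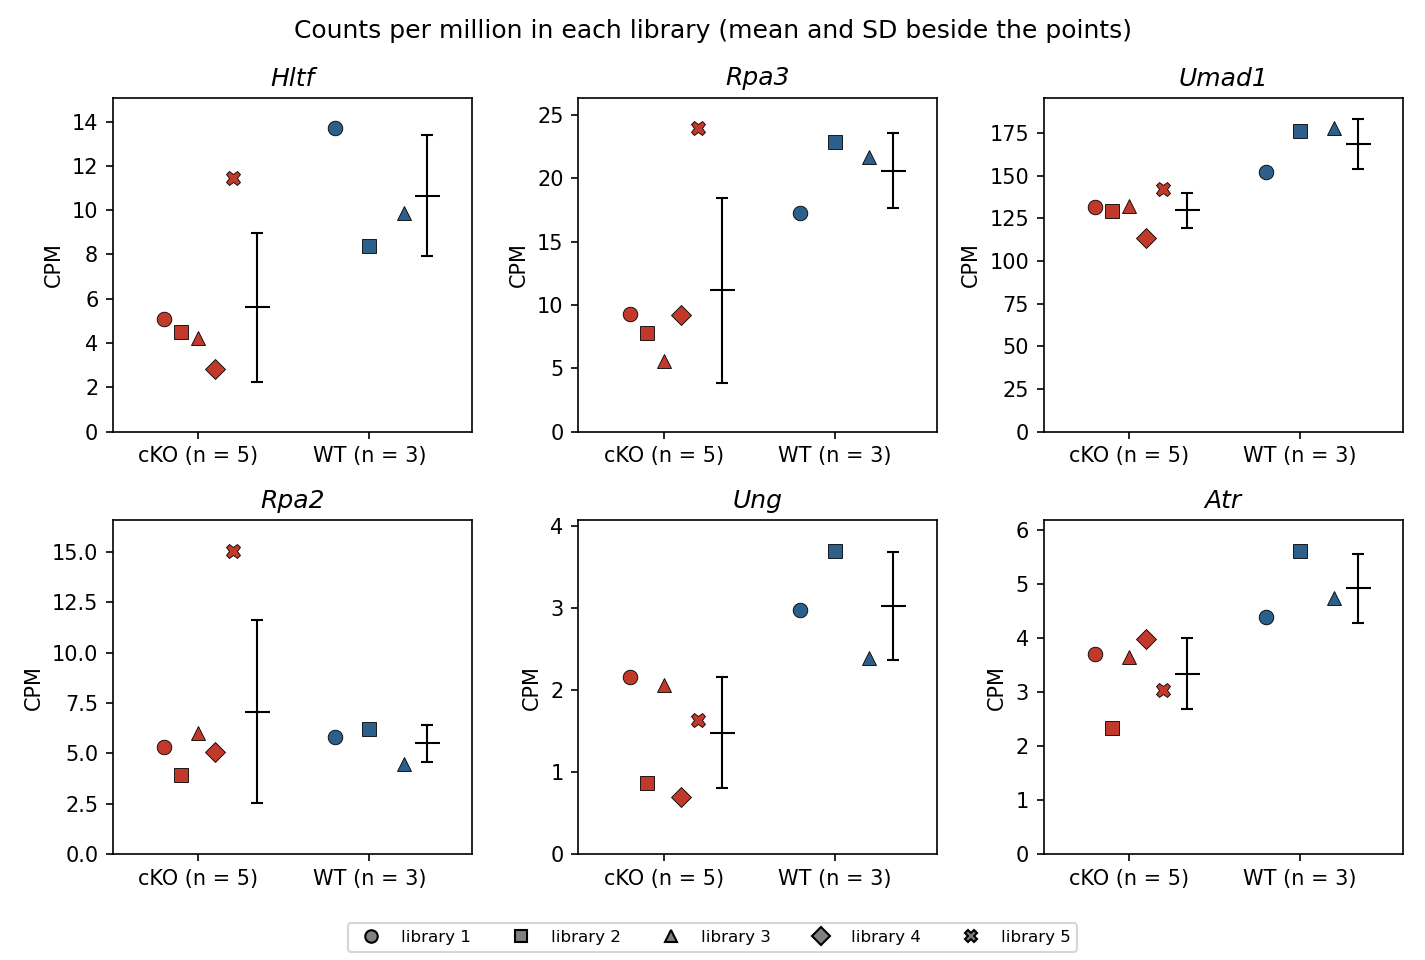
CPM of 6 genes in each library (points, marked by library number), with the group mean and SD beside them, cKO left and WT right. Library 5 of the cKO group lies within or above the WT range for Hltf, Rpa3 and Rpa2, whereas all cKO points lie below all WT points for Umad1, Ung and Atr.

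Among the translesion polymerases, Rev1 and Rev3l were close to their WT values and the smaller enzymes scattered. Rev1, a scaffold and deoxycytidyl transferase that brings the other polymerases together, was at 17.7, 17.6, 13.2, 16.5 and 15.3 CPM in cKO 1 to 4 and the library labelled cKO 5 and at 19.7, 14.2 and 15.9 CPM in WT. Its groups overlapped, with a log2 fold change of -0.047 (95% interval -0.43 to 0.34), and 26.6% of its exon bases lie under exons of Eif5b on the other strand. Rev3l, the catalytic subunit of polymerase zeta, was at 126, 112, 111 and 103 CPM in cKO 1 to 4 and 134 CPM in the library labelled cKO 5, against 130.3, 133 and 134 CPM in WT. The libraries cKO 1 to 4 lay below every WT library, and the library labelled cKO 5 lay within the WT range. Over all libraries its log2 fold change was -0.18 (SE 0.11; unadjusted p 0.111 by edgeR), and -0.24 with an unadjusted p of 0.0311 and an adjusted p of 0.534 by edgeR without that library.

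The other translesion enzymes copy past particular lesions, polymerase eta past ultraviolet dimers and polymerases kappa and iota past other altered bases. Polh, for polymerase eta, was at 1.86, 1.598 and 2.46 CPM in cKO 1 to 3 but at 0.24 and 0.33 CPM in cKO 4 and the library labelled cKO 5, against 0.80, 1.12 and 0.93 CPM in WT. The cKO libraries thus lay on both sides of all WT libraries, from 97, 100, 79, 11 and 12 counts, and the log2 fold change of 0.45 had a 95% interval of -1.19 to 2.09. Polk had a log2 fold change of 0.30 and Poli of -0.36, and for each the cKO and WT libraries overlapped.

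Among the sensing and signalling genes, Atr had the smallest p. Atr (ENSMUSG00000032409, mm10 chromosome 9, 95857597 to 95951781) encodes the kinase that replication protein A on single-stranded DNA recruits. It was at 3.70, 2.33, 3.65, 3.97 and 3.04 CPM in cKO 1 to 4 and the library labelled cKO 5, against 4.39, 5.62 and 4.74 CPM in WT. Every cKO library lay below every WT library. Atr had a log2 ratio of cKO over WT of -0.56 (SE 0.28), and edgeR gave an unadjusted p of 0.0687 (adjusted p 0.601), whereas the exact permutation p was 0.0357. The antisense genes 1700065D16Rik and Gm16794 share 3.1% and 2.0% of its exon bases, and the labels do not say whether counting used strand.

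Atm, the kinase for double-strand breaks, was at 26.5, 21.3, 23.4, 9.22 and 26.0 CPM in cKO 1 to 4 and the library labelled cKO 5 and at 16.2, 18.6 and 26.4 CPM in WT, with cKO 4 below all others. Rad50 and Nbn, which bind broken ends and recruit ATM, had log2 fold changes of 0.056 and 0.086, with 95% intervals of -0.29 to 0.40 and -0.28 to 0.45. Trp53bp1, which directs breaks towards end joining, had one of -0.16 (95% interval -0.42 to 0.10), and 15.0% of its exon bases lie under Tubgcp4. Brca1, which directs them towards homologous recombination, was near the detection limit, with 11, 3, 18, 0 and 3 counts in cKO 1 to 4 and the library labelled cKO 5 and 10, 24 and 34 counts in WT. Its 95% interval of -3.85 to 0.96 on the log2 scale allows a large difference in either direction.

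Of the end-joining genes, Xrcc6 and Xrcc5 encode the Ku subunits that hold DNA ends. Xrcc6 was at 7.24, 8.52, 9.79, 8.72 and 7.58 CPM in cKO 1 to 4 and the library labelled cKO 5 and at 4.41, 7.43 and 7.67 CPM in WT. The groups overlapped and WT 1 was the lowest library, with a log2 fold change of 0.36 (SE 0.24), an unadjusted p of 0.162 by edgeR, and 7.7% of its exon bases under Desi1. Its partner Xrcc5 had a log2 fold change of -0.24 (95% interval -0.62 to 0.13). Prkdc, the kinase that Ku recruits, had one of -0.079 (95% interval -0.54 to 0.38). Lig4, the ligase that closes the break, had one of -0.19 over all libraries and -0.0032 without the library labelled cKO 5, with 5.54 CPM in the library labelled cKO 5 below the 12.4 to 20.3 CPM of the other cKO libraries and the 14.5 to 16.6 CPM of WT.

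The base excision class had the lowest median of the 7 classes, at a log2 fold change of -0.24, with 5 of its 7 genes below 0. Ung (ENSMUSG00000029591, mm10 chromosome 5, 114130386 to 114139323) encodes the glycosylase that removes uracil from DNA. It was at 2.16, 0.86, 2.06, 0.69 and 1.63 CPM in cKO 1 to 4 and the library labelled cKO 5, from 113, 54, 66, 32 and 60 counts, against 2.98, 3.71 and 2.39 CPM in WT, from 112, 186 and 116 counts. All cKO libraries lay below all WT libraries, cKO 1 by the smallest distance. Ung had a log2 ratio of cKO over WT of -1.03 (SE 0.45, 95% interval -2.02 to -0.048), and edgeR gave an unadjusted p of 0.0415 (adjusted p 0.562), whereas the exact permutation p was 0.0714. Without the library labelled cKO 5 it was -1.08, and the unadjusted p by edgeR was above 0.05 without cKO 2 (0.0831), cKO 4 (0.0601), WT 1 (0.0784) or WT 2 (0.145).

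The class also holds another glycosylase and the enzymes that act after it. Ogg1, which removes oxidised guanine, averaged 3.21 ± 0.52 CPM in cKO (SD, n = 5) and 4.74 ± 1.43 CPM in WT (SD, n = 3), a log2 fold change of -0.56 (SE 0.30), and 10.6% of its exon bases lie under Camk1. Apex1, the endonuclease that cuts at the site left without a base, was at 37.0, 44.1, 48.7, 42.6 and 43.3 CPM in cKO 1 to 4 and the library labelled cKO 5 and at 50.9, 54.1 and 48.1 CPM in WT. Only cKO 3 reached into the WT range, and the log2 fold change was -0.24 (SE 0.12; unadjusted p 0.0663 by edgeR), but 61.7% of its exon bases lie under Pip4p1 on the other strand. Fen1, which trims flaps, had a log2 ratio of cKO over WT of -0.53 (SE 0.31), and 78.8% of its exon bases lie under the antisense gene Gm10143. Xrcc1, the scaffold, and Lig3, the ligase it holds, had log2 fold changes of -0.18 and 0.23, with 25.1% of the exon bases of Lig3 under Rffl. Parp1, which senses nicks and marks them with poly-ADP-ribose, was at 39.8 to 53.2 CPM in cKO 1 to 4, 67.6 CPM in the library labelled cKO 5 and 42.4 to 52.4 CPM in WT.

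No group difference in the p53 class or its targets passed the test. Trp53, which encodes p53, was at 19.4, 21.7, 23.9, 18.8 and 18.7 CPM in cKO 1 to 4 and the library labelled cKO 5 and at 16.96, 23.8 and 21.9 CPM in WT, with a log2 fold change of -0.027 (95% interval -0.39 to 0.33). Mdm2, the ubiquitin ligase that p53 induces and that degrades p53, was at 57.7, 46.8, 67.4, 46.8 and 62.2 CPM in cKO 1 to 4 and the library labelled cKO 5 and at 52.3, 54.8 and 54.0 CPM in WT. The cKO libraries lay on both sides of the narrow WT range, and the log2 fold change of 0.064 had a 95% interval of -0.25 to 0.38. Cdkn1a, the p21 inhibitor of cyclin-dependent kinases, was at 3.98, 7.72, 8.48, 1.81 and 5.46 CPM in cKO 1 to 4 and the library labelled cKO 5 and at 6.06, 3.25 and 5.01 CPM in WT. Its log2 fold change of 0.20 had the wide interval of -0.78 to 1.18, so these libraries bound the difference only loosely.

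The other 8 targets lay on both sides of 0. Sesn1, a stress-induced inhibitor of mTORC1, had the smallest p of the class. It was at 31.7, 28.0, 31.7, 30.6 and 23.9 CPM in cKO 1 to 4 and the library labelled cKO 5 and at 37.5, 30.6 and 40.1 CPM in WT, so WT 2 lay within the cKO values. Its log2 fold change was -0.31 (SE 0.15; unadjusted p 0.0593 by edgeR), whereas that of its relative Sesn2 was 0.54 (SE 0.37). Gadd45a, a growth arrest and damage-inducible gene, was at 1.61, 3.15, 2.49 and 2.91 CPM in cKO 1, 2, 3 and the library labelled cKO 5 but at 10.5 CPM in cKO 4, against 8.64, 6.14 and 5.13 CPM in WT. Apart from cKO 4, the cKO libraries lay below every WT library. The log2 fold change was -0.68 (SE 0.53) over all libraries and -1.38 (SE 0.32) without cKO 4. The fit without cKO 4 gave Gadd45a an unadjusted p of 0.00148 and an adjusted p of 0.605 by edgeR. In that fit 8.08% of all genes had an unadjusted p under 0.05. It is shown because cKO 4 was seen to go against the others, so its p overstates the difference.

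Among the death genes of the p53 programme, Bax, whose product opens mitochondria, was at 5.78, 8.79, 11.6, 20.3 and 13.6 CPM in cKO 1 to 4 and the library labelled cKO 5 and at 13.3, 7.53 and 8.16 CPM in WT. The groups overlapped, with a log2 fold change of 0.31 (SE 0.37). Bbc3, which encodes PUMA, was at 2.23 CPM or less in every library, with a log2 fold change of 0.046 and a 95% interval of -1.44 to 1.53. Phlda3, an inhibitor of AKT, was at a log2 fold change of 0.60 (SE 0.63), and Trp53inp1, a p53-induced stress protein, at -0.0058 (SE 0.54). Ccng1, which encodes cyclin G1, was measured with a narrow interval, at a log2 fold change of -0.059 (95% interval -0.29 to 0.18). Over all 36 genes, 10 had a 95% interval within -0.5 and 0.5 and 21 within -1 and 1.

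Per length, in CPM per kb of the longest transcript, the 36 genes spanned a wide range of levels. In WT, Apex1 had the highest level at 41.2 CPM per kb, then Ccng1 at 35.2, Rpa3 at 30.2, Mdm2 at 17.1, Rev3l at 12.3 and Parp1 at 12.01 CPM per kb, and Brca1 the lowest at 0.073 CPM per kb. Rpa3 averaged 16.4 CPM per kb over all cKO libraries and 11.7 CPM per kb in cKO 1 to 4. As a guide to counting precision, the WT mean of 4 of the 36 genes was under 1 CPM, 13 were at 1 to 10 CPM, 17 at 10 to 100 CPM, and 2 at 100 CPM or more.

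**Figure D4:**
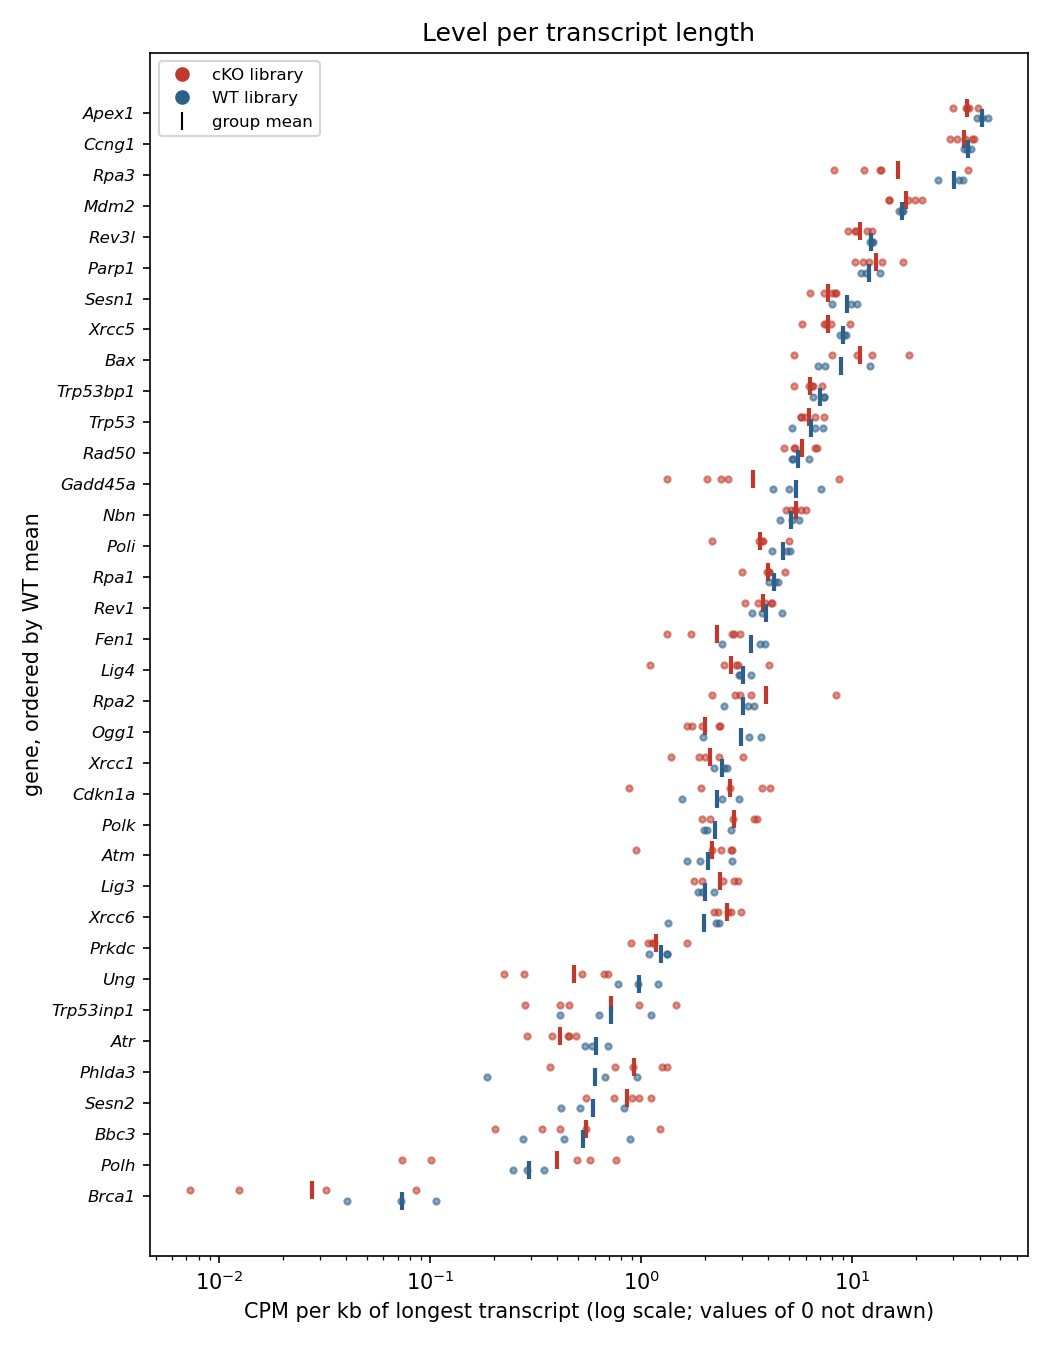
CPM per kb of the longest transcript (log axis) for each gene in each library, cKO above WT, with bars at group means, in the order of the WT mean. The 4 lower cKO points of Rpa3 lie left of all its WT points, at a level per kb that is among the highest of the 36 genes.

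The remaining genes of the same pathways showed a similar picture. Of 121 other genes in 9 lists, 112 were tested, and with an unadjusted p under 0.05 by edgeR 1 was higher and 3 were lower in cKO, which is 3.57% of them, beside 8.72% of all genes. By adjusted p, 0 passed. The groups did not overlap for 1 higher and 3 lower genes, again 3.57%, beside 7.19% of all genes. Without the library labelled cKO 5, 2 were higher (Fancg and Mlh3) and 4 lower (Rad23b, Swi5, Neil2 and Topbp1), beside 8.77% of all genes. The list medians ran from -0.14 for other translesion polymerase subunits to 0.17 for other end-joining genes. The p53 targets outside the 36 had a median of -0.025 over 21 genes tested, with 0 past an unadjusted p of 0.05, and the smallest p there were those of Btg2 (-0.52), Pidd1 (1.63, with 0 counts in 3 libraries) and Aen (-0.29).

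Fancg, a Fanconi core complex gene of the pathway for crosslinked DNA, was the one higher gene. It was at 3.43, 2.70, 4.24, 8.92 and 4.73 CPM in cKO 1 to 4 and the library labelled cKO 5, against 0.85, 1.93 and 2.41 CPM in WT, and every cKO library lay above every WT library. Its log2 fold change was 1.47 (SE 0.48), and edgeR gave an unadjusted p of 0.0104 (adjusted p 0.499). Rad23b, which stabilises the lesion sensor XPC of nucleotide excision repair, was at 215, 188, 217, 229 and 182 CPM in cKO 1 to 4 and the library labelled cKO 5, against 259, 251 and 240.2 CPM in WT. All its cKO libraries lay below WT, with a log2 fold change of -0.28 (SE 0.10, adjusted p 0.503 by edgeR).

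Topbp1, which activates the ATR kinase, was at 27.4, 23.3, 15.6, 18.6 and 17.8 CPM in cKO 1 to 4 and the library labelled cKO 5, against 28.3, 29.4 and 29.4 CPM in WT. Every cKO library lay below WT, as held for 3.82% of all genes tested, with a log2 fold change of -0.50 (SE 0.19, adjusted p 0.520 by edgeR). Of the 16 genes in its list, 7 had a log2 fold change above 0 and 9 below 0. Rad1, a subunit of the clamp that brings Topbp1 to ATR, had a log2 ratio of cKO over WT of -0.64 (SE 0.30). That of Atrip, the partner of ATR, was 0.33 (SE 0.20). Brca2, which acts in homologous recombination, averaged 4.44 CPM in cKO and 6.85 CPM in WT, a log2 fold change of -0.63 (SE 0.27, adjusted p 0.558 by edgeR). Rbbp8 and Swi5 of the same list had -0.79 and -0.27.

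In the remaining lists, the base excision genes Neil2, Nthl1 and Polb had log2 fold changes of -1.12, -1.97 and -0.30, and Neil2 did not overlap, at 0.37 to 0.87 CPM in cKO and 0.88 to 1.59 CPM in WT. Mlh3, Msh3 and Pms2 of mismatch repair had 0.47, -0.31 and 0.26. The end-joining genes Dclre1c, Poll and Nhej1 had 0.43, 0.68 and 0.42. Xpa and Cetn2 of nucleotide excision repair had -0.34 and -0.19, Fanci and Slx4 of the Fanconi list -0.49 and -0.17, and Pold3, Pold1 and Primpol of the translesion list -0.25, 0.98 and -0.47. None of these had an unadjusted p under 0.05 by edgeR. The 9 genes not tested for low counts included Eda2r, Fas, Gdf15, Cdkn2a, Exo1, Bard1, Neil1 and Neil3.

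**Figure D5:**
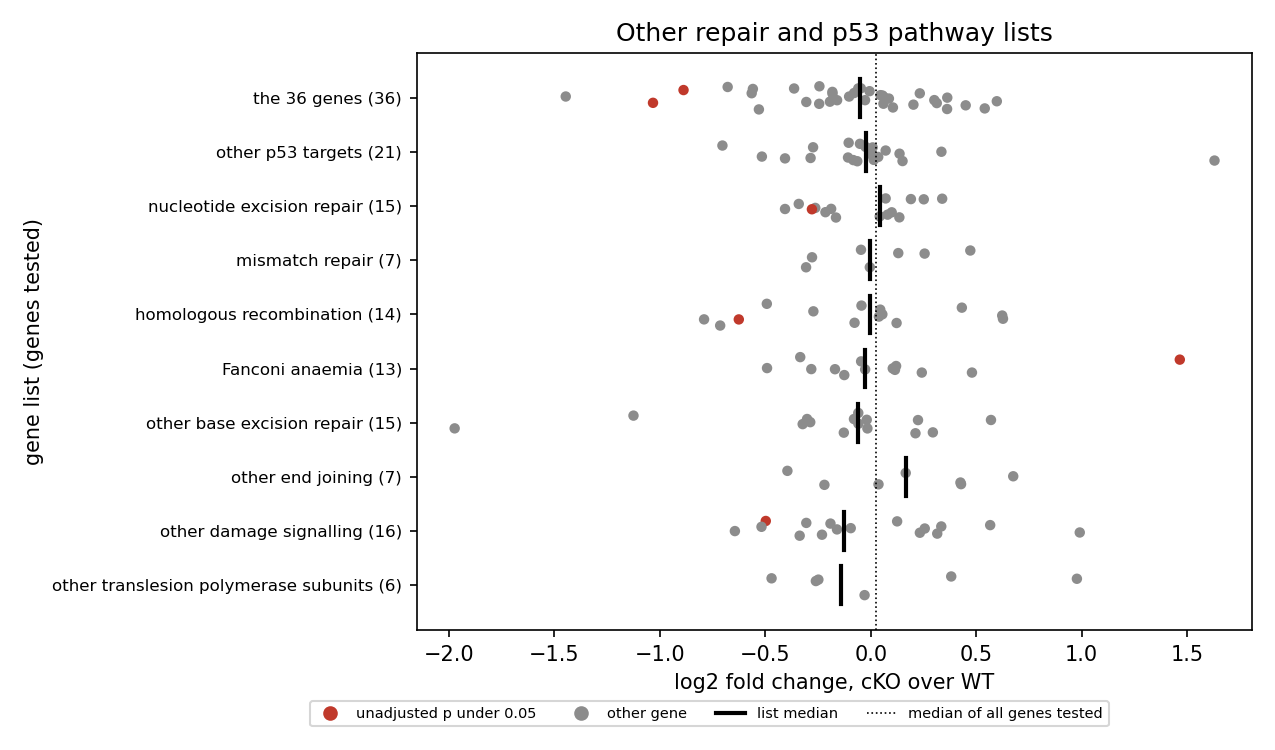
Log2 fold change in cKO over WT (x axis) of each gene tested (points) in the 36 genes and 9 further lists, with list medians as bars and the median of all genes tested as a dotted line. The points past an unadjusted p of 0.05 are 2 of the 36 genes and 4 of the 112 others.

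Summed markers of oligodendrocytes and of their precursors were higher in every cKO library than in every WT library. Sums of the dividing-cell, astrocyte, microglia, vessel, and choroid plexus and ependyma lists overlapped between the groups. The oligodendrocyte list summed to 83.8 to 107 CPM in cKO and 71.4 to 75.8 CPM in WT, with 3 of 10 genes higher at an unadjusted p under 0.05 by edgeR, and the precursor list to 5.11 to 8.96 CPM in cKO and 2.63 to 4.04 CPM in WT, with 2 of 5 higher. Slc17a7, a glutamatergic transporter gene, had a log2 fold change of 0.49, with every cKO library above every WT library. Markers of dividing cells, in which many repair genes are induced, summed to 19.7 to 26.1 CPM in cKO and 25.9 to 32.04 CPM in WT. Most of that sum was Ccna2, at 15.5 to 21.96 CPM in cKO and 24.4 to 30.2 CPM in WT with a log2 fold change of -0.50, whereas Mki67 averaged 1.04 CPM in cKO and 0.43 CPM in WT, at a log2 fold change of 1.27 (SE 0.87), Mcm2 had one of 0.0048, and Cdk1, Ccnb1 and Bub1 were under 0.1 CPM on average. The astrocyte list summed to 29.4 to 34.1 CPM in cKO and 23.4 to 35.9 CPM in WT. The microglia list summed to 7.86 to 14.1 CPM in cKO and 10.4 to 17.4 CPM in WT. The vessel list summed to 19.4 to 84.4 CPM in cKO and 53.5 to 72.1 CPM in WT. Most of the vessel sum was Rgs5, at 18.3 to 82.4 CPM in cKO and 52.9 to 71.4 CPM in WT. The choroid plexus and ependyma list summed to 25.6 to 47.4 CPM in cKO 1 to 3, 53.1 CPM in cKO 4 and 73.9 CPM in the library labelled cKO 5, against 27.8 to 37.7 CPM in WT, with a median log2 fold change of 1.62 and 1 of its 4 genes tested, Foxj1, higher at an unadjusted p under 0.05 by edgeR. Foxj1 rested on 1, 4 and 10 counts in WT. The part of the cells behind these markers in the values of Ung, Atr, Rpa3 or Fancg was not tested.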

How the data were processed

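RNA from TRAP pull-downs was sequenced in 5 cKO and 3 WT libraries. The deposited table holds raw counts per Ensembl gene, and the authors aligned with STAR 2.5.3a and counted with HTSeq on mm10, per the submitters' processing notes; annotation release, strandedness and filters are not given in the sources used here. Symbols, positions and transcript lengths came from GENCODE vM21 for the same build, and 37693 of 39017 genes had a symbol.

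Counts were fitted with edgeR 4.0.16 in R 4.3.3 by trimmed-mean (TMM) scaling, filterByExpr by group and the robust quasi-likelihood test of cKO against WT, two-sided, with Benjamini-Hochberg adjustment over the 17654 genes tested and a threshold of 0.05. CPM use TMM-scaled totals, SE and 95% intervals come from the F statistic, and log2 CPM for exact permutation tests used a prior count of 2. The fit was checked on simulated counts. With 31760155 to 61823651 counts a library, counting limits precision mainly for genes with few counts, such as Brca1. Alternatives were RLE and upper-quartile scaling, no or a stricter low-count filter, dispersions without robust fitting, DESeq2 1.42.0, limma-voom (limma 3.58.1) with quality weights, each library left out, 6 libraries with and without the replicate number as a block, and an offset for GC content and length. Leaving the library labelled cKO 5 out of counts of groups that do not overlap, and of counts over the further lists, was chosen after seeing the data. So was showing Gadd45a without cKO 4.

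Values in every library are given for genes with an unadjusted p under 0.05 or groups that do not overlap, the gene with the smallest p of each class, and Trp53, Mdm2, Cdkn1a and Rev1; others shown by library, and Umad1, were chosen after their values were seen. From each further list the 3 genes with the smallest p are named. The 36 genes and the lists were chosen with earlier results of these data known. Plots used matplotlib 3.10.9 under Python 3.11.15.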

Additional observations from a re-analysis of the deposited data

Results flagged for a closer look

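In 8 of the 65 genes looked at, 1 of the 5 cKO libraries stood apart from the others. The gap was more than 0.71 of the whole range of the group. That cut-off gives about 3.25 of 65 by chance for normal, independent values. These genes share the same 5 libraries and include genes named for a small p, so the 8 cannot be set against it. All 8 were high values, 3 of them in the library labelled cKO 5 and 5 in cKO 4. In the library labelled cKO 5, Hltf was at 11.4 CPM, against 2.83 to 5.10 CPM in the other cKO libraries and 8.39 to 13.7 CPM in WT. Rpa3 was there at 24.0 CPM, against 5.55 to 9.31 CPM in the other cKO libraries and 17.3 to 22.9 CPM in WT. Rpa2 was there at 15.1 CPM, against 3.92 to 6.02 CPM in the other cKO libraries and 4.45 to 6.20 CPM in WT.

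In cKO 4, Gadd45a was at 10.5 CPM, against 1.61 to 3.15 CPM in the other cKO libraries and 5.13 to 8.64 CPM in WT. Mlh3 and Pms2, a pair of mismatch repair genes, were there at 72.0 and 24.3 CPM, against 33.1 to 40.5 and 14.0 to 16.5 CPM in the other cKO libraries and 29.0 to 36.1 and 10.3 to 18.3 CPM in WT. Dclre1c, which encodes the nuclease Artemis, was there at 52.1 CPM, against 19.5 to 26.7 CPM in the other cKO libraries and 18.2 to 26.3 CPM in WT. Pold1, a polymerase delta subunit, was there at 2.40 CPM, against 0.45 to 0.84 CPM in the other cKO libraries and 0.29 to 0.68 CPM in WT. What sets these single libraries apart was not tested.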

How the results depend on the processing

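No choice of scaling, filter, dispersion or test gave an adjusted p under 0.05 for any of the 36 genes, except for Rpa3 in the 6 libraries with numbers 1 to 3 (1 gene called lower, -1.45 on the log2 scale). DESeq2 could not call those of the 36 for which it gave no adjusted p, such as Ung. Over all genes, the count called higher was 2 with no filter on low counts, 2 when a CPM of 1 was required in 3 libraries, 80 by DESeq2, 3 by limma-voom, 5 in the 6 libraries and 1 there with the replicate block and the GC and length offset; the count called lower was 49 by DESeq2, 1 by limma-voom and 5 in the 6 libraries. At an unadjusted p under 0.05, 2 of the 36 were higher in the 6 libraries (Polh and Lig3), 2 with the replicate block and 1 with the block and the offset, beside 4.45%, 3.94% and 3.25% of all genes. The number lower was 5 by DESeq2 (3.53% of all genes), 5 by limma-voom (6.51%), 1 with the offset alone (3.25%), and 0 to 3 with 1 library left out (1.99% to 5.1%). Without the library labelled cKO 5, 4 of the 36 did not overlap, all lower. The end-joining median was -0.044 in the 6 libraries and -0.042 with the block and the offset.

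Same-numbered libraries did not deviate together (correlations of -0.0092, 0.0091 and -0.046). Such correlations cannot exclude that same-numbered pools shared an origin or handling, so whether the numbers pair libraries stays unknown. With the replicate block Rpa3 had a log2 fold change of -1.47 and an adjusted p of 0.248 by edgeR.

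Signs turned only for log2 fold changes with intervals across 0. In the 6 libraries, with the block, and with the block and the offset, the values were -0.12, -0.13 and -0.14 for Rpa2, 0.033, 0.0042 and 0.0063 for Lig4, -0.12, -0.11 and -0.17 for Parp1, -0.16, -0.15 and -0.27 for Bax, and -0.28, -0.16 and -0.26 for Bbc3. Trp53 was at 0.046 in the 6 libraries and 0.057 with the block. By limma-voom, Parp1 was at -0.042 and Trp53 at 0.0050. With the GC and length offset, Bbc3 was at -0.057, Ccng1 at 0.066 and Trp53inp1 at 0.095. With 1 library left out, ranges that crossed 0 were -0.15 to 0.094 for Rev1, -0.12 to 0.52 for Rpa2, -0.081 to 0.29 for Atm, -0.0063 to 0.14 for Rad50, -0.24 to 0.011 for Prkdc, -0.031 to 0.20 for Parp1, -0.16 to 0.077 for Trp53, -0.0038 to 0.13 for Mdm2, -0.013 to 0.43 for Cdkn1a, -0.49 to 0.62 for Bbc3, -0.44 to 0.46 for Trp53inp1, -0.30 to 0.051 for Slx4 and -2.47 to 0.43 for Nthl1. The causes were not tested. Few libraries, their unequal spread and low counts of Brca1, Polh, Bbc3 and Phlda3 limit what can be seen.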
